A study of Mus musculus with 6 samples.

Results

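Mouse embryonic stem cells (ESCs) lacking Hnrnpf were compared with wild type cells while both grew with leukemia inhibitory factor (LIF), a cytokine added to the medium so that mouse ESCs keep renewing themselves. The 3 libraries of this comparison, of 6 in the series, are 1 of wild type E14 cells, an established mouse ESC line, and 2 of Hnrnpf KO cells of the same line, numbered 1 and 2. All 3 came from serum medium with LIF and carried no other stated allele or agent. The other 3 libraries have the same genotypes after LIF was removed for 4 days. The labels do not give the knockout allele, nor whether knockouts 1 and 2 are separate clones or cultures. The p-values therefore rest on a spread between knockout libraries that may not be independent knockouts. The values are FPKM, fragments per length of transcript and size of library. Genes whose mean over the 3 LIF libraries was 1 FPKM or more were compared, 11641 of the 25170 gene symbols measured (46.3%).

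Hnrnpf encodes hnRNP F, a nuclear RNA-binding protein of the hnRNP H/F family that binds guanine-rich stretches of RNA and takes part in splicing and 3′ end processing. In mouse ESCs, LIF acts through its receptor and gp130 on the JAK kinases and STAT3, and STAT3 sustains a set of transcription factors, among them Klf4, Tfcp2l1 and Esrrb, that define the naive pluripotent state. Loss of that state is followed by a formative state, marked by Otx2, Dnmt3b and Fgf5, from which the germ layers arise. The question the submitters' design text names is how global expression changes after loss of HNRNPF, before and during differentiation.

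All 14 ESC markers examined were at 1 FPKM or more in every one of the 3 libraries, and their summed level was 10283 FPKM in wild type, 7430 in knockout 1 and 7495 in knockout 2. Most of each sum, and of the difference between the sums, came from Dppa5a alone, at 6460.5, 4062 and 4115 FPKM. Markers of fibroblasts, the usual feeder cells, summed to 4.26, 9.11 and 9.53 FPKM, mostly from Thy1, and markers of mesoderm and primitive endoderm summed to at most 4.62 FPKM in any of the libraries. Neural markers summed to 89.3, 92.4 and 84.7 FPKM, mostly from Tubb3, and trophoblast markers to 46.8, 38.6 and 54.9 FPKM, with Tfap2c and Krt8 the highest. The FPKM of all genes summed to 556320 in wild type, 503480 in knockout 1 and 504910 in knockout 2. The number of reads behind each value is unknown. In bulk libraries, fewer cells of a type and less RNA per cell cannot be told apart.

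Hnrnpf, on chromosome 6 (GRCm38, chr6:117900324-117925622, plus strand), was listed at 342 FPKM in wild type, 98.7 in knockout 1 and 37.1 in knockout 2. Both knockout libraries were therefore below wild type, at 28.9% and 10.8% of its level, and the gene was not at 0 in either. A gene-level FPKM does not show which exons the remaining fragments came from. The mean difference was -2.48 on the log2(FPKM + 1) scale (SE 0.765), which did not pass the threshold (limma, adjusted p = 0.185). The separate differences were -1.78 and -3.17. Hnrnph1, which encodes the closest relative of hnRNP F, was listed at 256 FPKM in wild type, 498 in knockout 1 and 559 in knockout 2, a difference of 1.04 (SE 0.142, limma adjusted p = 0.0993). Hnrnph1 lies on chromosome 11, whose genes as a whole were higher in both knockout libraries, as given further on. Hnrnph2, Hnrnph3 and Grsf1, the other members of the family, differed from wild type by at most 0.36 in either knockout library. Of 30 hnRNP genes tested, 8 were above wild type in both knockout libraries and 16 below, and Hnrnpf alone of these 30 was at least 1 away in both. Beyond it, the furthest below was Rbmx, with 6.67 FPKM in wild type and 3.61 and 3.99 in the knockouts, and Hnrnpdl was at 110 against 68.0 and 75.4 FPKM.

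With LIF, 4 genes passed the test and all 4 rose in the knockout: Mest, Rian, Meg3 and Serpina3m (limma, adjusted p under 0.05, 0.0344% of the genes tested). No gene passed it in the lower direction, while 1982 genes (17% of those tested) had an unadjusted limma p under 0.05 in either direction. Without knockout 2 none of the 4 passed (limma adjusted p from 0.062 to 0.0832), and none passed without the intensity trend or without a filter on low values. The agreement of both knockout libraries was therefore described beside the test. Both lay above wild type for 3921 genes (33.7%) and both below for 5049 (43.4%). This imbalance depends on scaling, because values were not rescaled. The counts above and below were 4200 and 4583 under quantile normalization, and 4283 and 4652 under median ratio scaling. Both lay at least 1 above on the log2 scale for 156 genes (1.34%) and at least 1 below for 89 (0.765%). Taken alone, knockout 1 had 232 genes at least 1 above and 184 below, and knockout 2 had 396 and 291. Amd1, Rhox5 and Tagln were the 3 genes at least 1 away on opposite sides. Because each difference uses the same wild type library, an unusual value there moves both knockouts the same way. The median difference over all genes was -0.05 in both knockouts, and the median distance between the knockout libraries (0.183) was smaller than that of knockout 1 or knockout 2 from wild type (0.247 and 0.285).

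**Figure D1:**
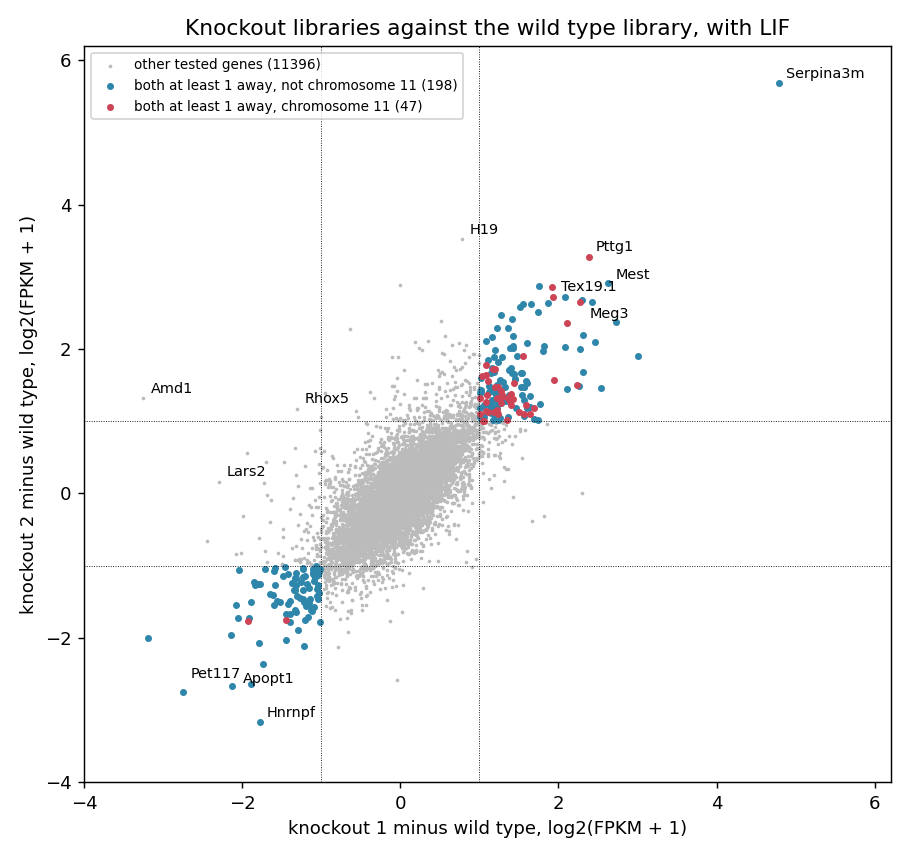
Difference of each knockout library from the wild type library with LIF, log2(FPKM + 1), knockout 1 on the horizontal and knockout 2 on the vertical axis; each point is 1 of 11641 genes, and dotted lines stand at 1 and -1. Of the 245 coloured genes, 156 lie at the upper right and 89 at the lower left, with Serpina3m furthest out; Snora81, listed at 0, 0 and 851 FPKM, falls outside the axes.

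The genes that were higher were often low in wild type, and the genes that were lower were not. Of the 156 genes above, 65 were under 1 FPKM in wild type and 37 reached 20 FPKM in at least 1 library. Of the 89 genes below, 36 reached 20 FPKM and by construction none was under 1 FPKM in wild type. An exact 0 in a table of estimates can be a failed estimate, and 12 of the 156 and 2 of the 89 genes had a library at 0. Their positions were also uneven. Chromosome 11 held 45 of the 156 (28.8%, against 8.62% of all genes tested), and chromosome 6 held 21 (13.5%, against 4.50%). Of the 89 genes below, 2 lay on each of these chromosomes.

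The shift on chromosome 11 covered the genes there as a group. The median difference of its 1003 tested genes was 0.46 in knockout 1 and 0.47 in knockout 2. Chromosome 6 had medians of 0.10 and 0.15, and chromosome 8 had 0.07 in knockout 1 and -0.36 in knockout 2. The other 17 chromosomes lay between -0.15 and -0.03. DNA copy number was not measured here, and the part of these chromosome-wide values in the difference of any single gene on chromosomes 6, 8 and 11 was not tested. Outside these 3 chromosomes, 84 genes were at least 1 above and 82 at least 1 below, so genes above made up 50.6% of these, against 63.7% over all chromosomes. Short transcripts also stood lower: the 115 genes with a median annotated transcript of up to 500 bases had medians of -0.31 and -0.35.

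**Figure D2:**
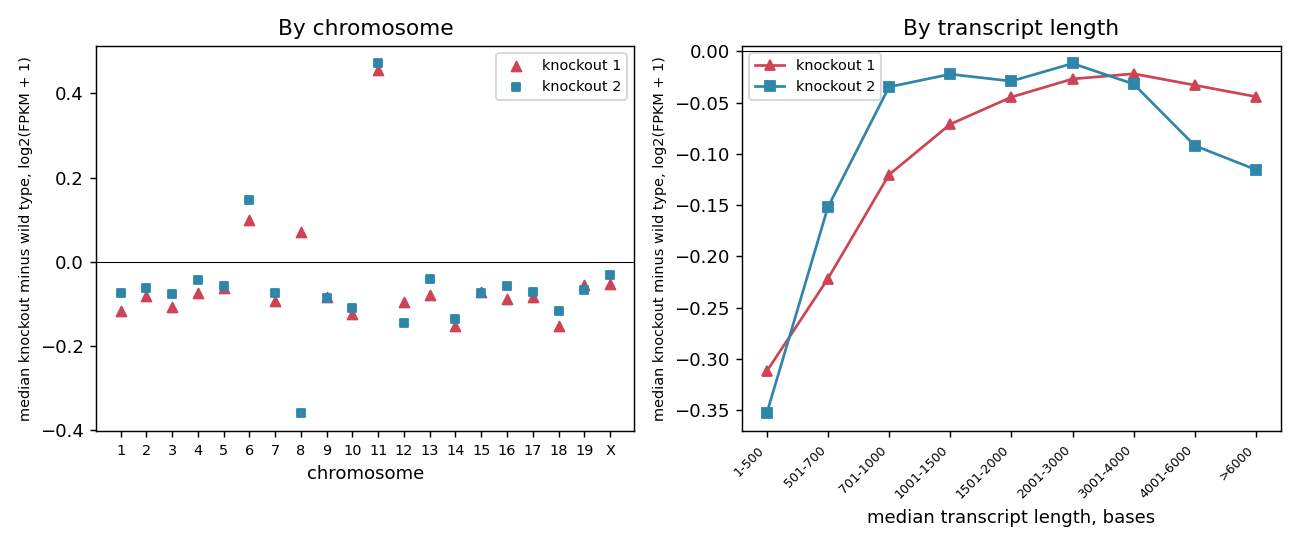
Median difference of each knockout library from wild type with LIF, log2(FPKM + 1), by chromosome (left) and by median GENCODE transcript length in bases (right); triangles are knockout 1 and squares knockout 2. The knockouts stand at 0.46 and 0.47 on chromosome 11, they part on chromosome 8, and both are lowest for transcripts of up to 500 bases.

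Of the genes that rose, Mest, Rian and Meg3 are imprinted, that is, normally expressed from the copy of 1 parent. Mest, a paternally expressed gene for a hydrolase-like protein (chr6:30723547-30748465), was at 19.4 FPKM in wild type, 125 in knockout 1 and 153 in knockout 2, a mean of 139 ± 19.9 (SD, n = 2). That is 7.16 times the wild type level, and its log2 difference was 2.77 (SE 0.175, limma adjusted p = 0.0132). Meg3, Rian and Mirg are maternally expressed noncoding RNAs of the Dlk1-Meg3 region on chromosome 12, and all 3 were low in wild type and several times higher in both knockouts. Rian was at 14.8 FPKM against 83.4 and 97.8 (log2 difference 2.54, SE 0.167, limma adjusted p = 0.0132). Meg3 was at 12.9 against 67.7 and 88.1 FPKM (2.49, SE 0.201, limma adjusted p = 0.0271), and Mirg at 1.94 against 13.6 and 12.5 (2.26, limma adjusted p = 0.0528). Dlk1, the paternally expressed protein-coding gene of that region, was at 0.247 FPKM in wild type and at 2.21 and 2.15 in the knockouts. Mest lies on chromosome 6, whose median differences were 0.10 in knockout 1 and 0.15 in knockout 2. The 4 genes of the Dlk1-Meg3 region lie on chromosome 12, with medians of -0.10 and -0.15. Copy number at these genes was not measured.

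Serpina3m, a member of a cluster of serine protease inhibitor genes on chromosome 12 (chr12:104338486-104394257), went from 0.164 FPKM to 31.1 and 58.9, the largest agreeing difference of all genes tested (5.24, SE 0.431, limma adjusted p = 0.0271). The Serpina3 genes of the cluster are similar copies, so reads may have been divided among them. Serpina3k was listed at 0 in wild type and at 1.39 and 1.99 FPKM in the knockouts, and the other 15 listed members of the cluster did not reach a mean of 1 FPKM. The wild type library held almost none of these transcripts, and both knockout libraries held Serpina3m at a level above that of Meg3 or Rian in wild type.

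Further genes far above wild type in both knockouts did not pass the test. Pttg1, which encodes securin, the inhibitor of separase at anaphase, was at 10.5 FPKM against 59.2 and 111. Hormad2, a meiotic chromosome axis protein, was at 0.713 against 5.45 and 11.4 FPKM. Ifi35, an interferon-induced protein, was at 1.05 against 7.85 and 9.54. These 3 genes, with Irgm1 and Tex19.1 described below, lie on chromosome 11, where the median difference was 0.46 and 0.47; the smallest difference of any of the 5 in either library was 1.91. Outside chromosomes 6, 8 and 11, Mep1b, a subunit of the metalloprotease meprin, was at 0.674 against 8.22 and 6.15 FPKM, and Rbp7, a retinol-binding protein, at 1.01 against 6.03 and 6.88. Pnma5, on the X chromosome, was at 1.09 against 6.02 and 14.2.

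The genes furthest below wild type had varied functions. Pltp, which encodes a phospholipid transfer protein, was at 107 FPKM in wild type, 30.3 in knockout 1 and 24.6 in knockout 2 (log2 difference -1.93, SE 0.200, limma adjusted p = 0.0671). Grb10, a maternally expressed imprinted adaptor that restrains insulin and growth factor receptors, was at 57.3 against 14.3 and 16.1 FPKM (limma adjusted p = 0.0785). For both genes the knockout libraries lay close together and well below wild type, yet neither passed the threshold over all genes. Grb10 lies on chromosome 11, so it went against the direction of that chromosome's median.

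Apopt1, a factor for assembly of cytochrome c oxidase, was at 36.3 FPKM in wild type and at 7.54 and 4.87 in the knockouts. Cox6b2, the testis form of a cytochrome c oxidase subunit, was at 96.4 against 22.1 and 32.2. Pet117, also an assembly factor of that enzyme, was listed at 5.72 FPKM in wild type and at 0 in both knockouts, and since it was at 0 in all 3 libraries after LIF removal as well, the wild type value with LIF is the only one that differs. Ndufb4, a complex I subunit, was listed at 8.14 against 0 and 1.28 FPKM, and Lsm7, an RNA-binding subunit of the Lsm ring, at 10.5 against 1.61 and 1.97. Wild type after LIF removal had 0.466 FPKM of Ndufb4 and 2.14 of Lsm7, near the knockout values with LIF. Sfrp1, a secreted Wnt antagonist on chromosome 8, was at 27.0 against 8.22 and 8.56 FPKM, and Tcl1, a coactivator of AKT found in naive ESCs, at 90.1 against 30.6 and 31.0. Dtna, Cacng8, Fsbp and Macrod1 also belong to the 15 genes furthest below; each had between 5.34 and 8.47 FPKM in wild type.

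**Figure D3:**
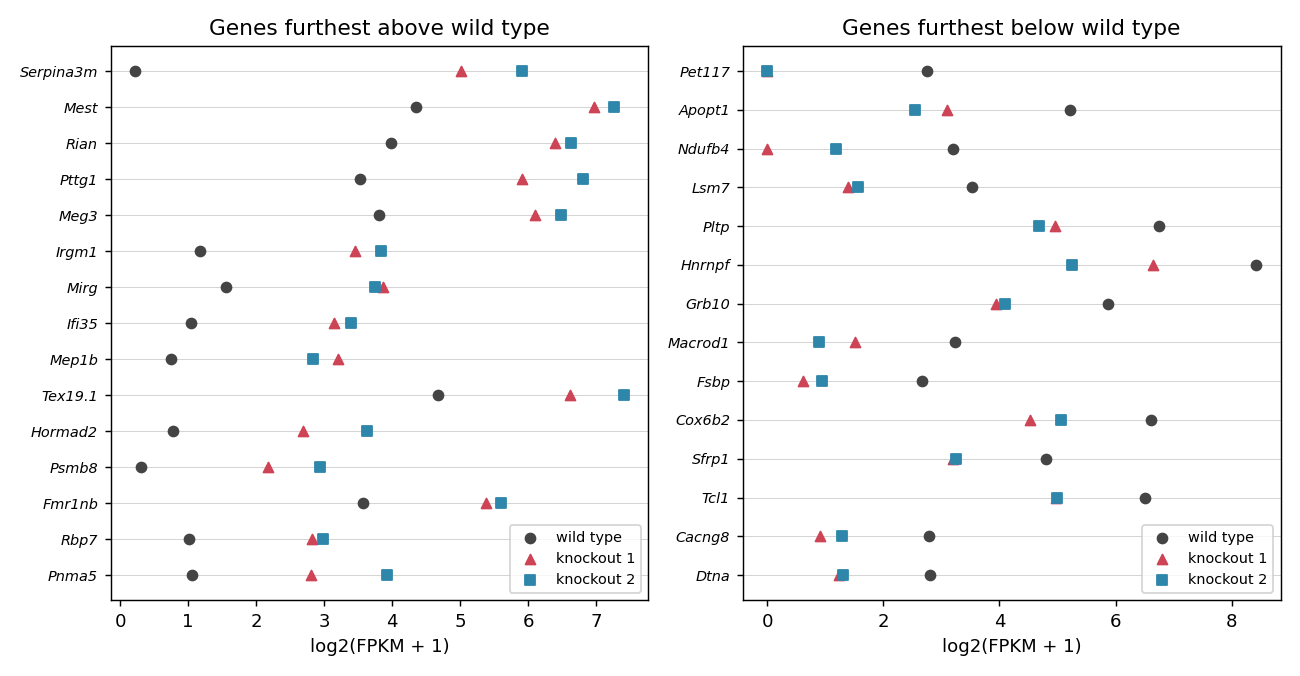
Level of the 15 genes furthest above (left) and of 14 of the 15 furthest below wild type (right) in the 3 LIF libraries, log2(FPKM + 1); circles are wild type, triangles knockout 1 and squares knockout 2. In every row both knockout libraries lie on the same side of wild type, which is how the genes were chosen; Pet117 is at 0 in both knockouts.

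Gene groups were described by counts and medians, beside a median of -0.05 over all tested genes. The shares over all genes were 33.7% above and 43.4% below in both knockouts, without rescaling. The members of the groups that were higher, interferon-induced, germline, paternally expressed imprinted and formative genes, and of those that were lower, naive transcription factors, LIF signalling genes and respiratory chain subunits, are given in turn. No member of any group passed the test apart from Mest, Rian, Meg3 and Serpina3m.

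**Figure D4:**
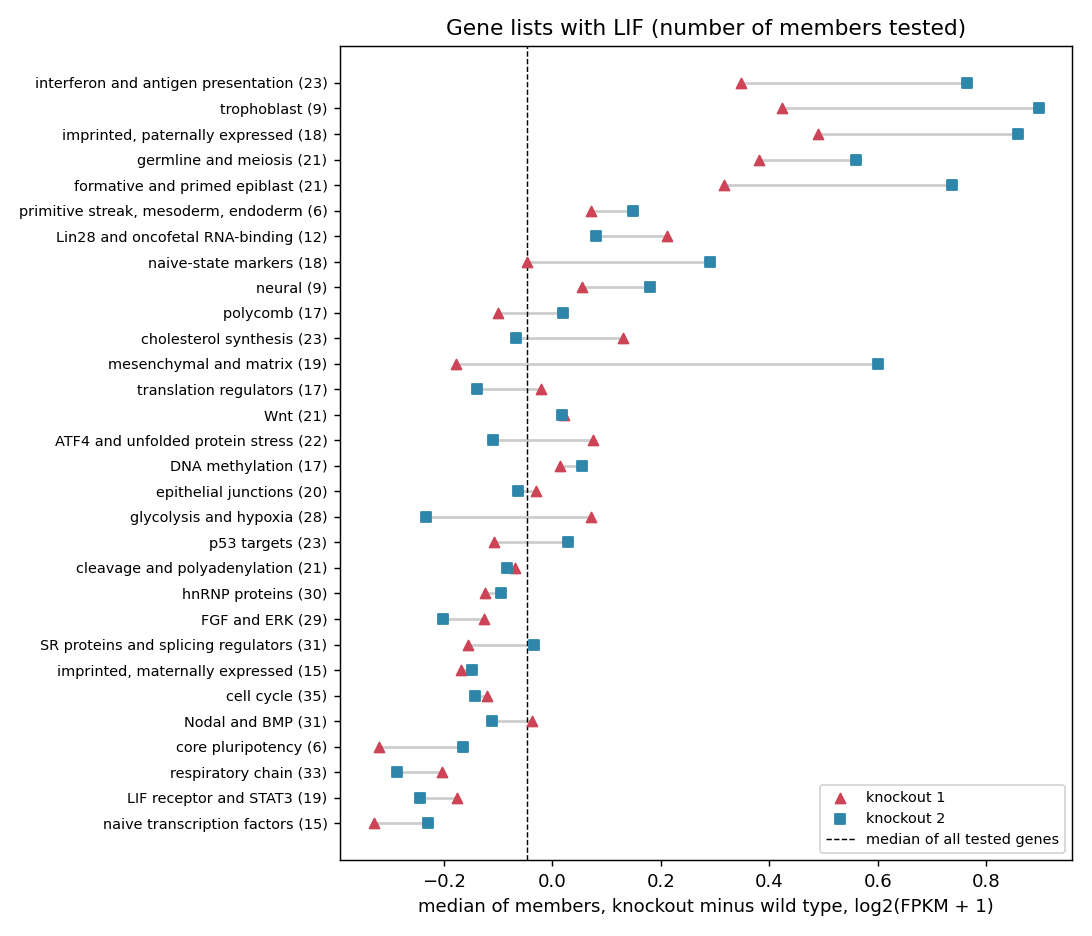
Median difference from wild type with LIF of each gene list with at least 5 tested members, log2(FPKM + 1); triangles are knockout 1, squares knockout 2, and the dashed line is the median of all 11641 tested genes. Interferon, trophoblast, paternally expressed imprinted, germline and formative genes lie above the line in both knockouts, and the mesenchymal list differs most between them.

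Interferons act through STAT and IRF factors, which bind the interferon-stimulated response element (ISRE) in the promoters of their targets, and the targets include immunity-related GTPases, guanylate-binding proteins and the immunoproteasome. The ISRE core was searched as GAAA, any 2 bases and GAAA again, or on the other strand as TTTC, any 2 bases and TTTC, in the 250 bases before each gene's start (RefSeq, GRCm38.p6). It was found in 2.98% of all 32851 promoters and in 2.86% of the 9348 tested genes with a promoter in the table. Of the 156 genes at least 1 above in both knockouts, 120 had a promoter and 13 held the core (10.8%). Of the 89 genes below, 63 had a promoter and none held it. At a share of 2.86%, few of 63 promoters would hold the core, so its absence there says little. The 156 genes were chosen by their rise, and 65 of them were under 1 FPKM in wild type. The shares were not tested. Of the interferon list, 21 tested genes had a promoter and 8 held the core. A match describes the letters in this window and is not evidence of binding. The core is in capitals in 4 GTPase genes that were at least 1 above in both knockouts and in B2m and Stat2, which hold the core and were not. Each window is given in the gene's own direction of transcription, at chr3:142620589-142620628 for Gbp2, chr11:58199507-58199546 for Igtp, chr11:48871426-48871465 for Irgm1 (minus strand), chr11:58214898-58214937 for Irgm2, chr2:122147533-122147572 for B2m and chr10:128270261-128270300 for Stat2.
Gbp2: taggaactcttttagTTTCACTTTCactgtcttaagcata
Igtp: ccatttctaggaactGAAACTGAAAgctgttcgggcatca
Irgm1: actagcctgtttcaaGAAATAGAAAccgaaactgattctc
Irgm2: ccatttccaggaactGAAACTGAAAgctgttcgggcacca
B2m: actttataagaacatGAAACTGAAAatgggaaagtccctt
Stat2: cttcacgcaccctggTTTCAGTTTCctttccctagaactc

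Of the 23 tested genes of interferon response and antigen presentation, 17 were above wild type in both knockouts, 8 of them by at least 1, and 3 were below. The median difference was 0.79, with 0.35 in knockout 1 and 0.76 in knockout 2. Part of this is set by the filter, because Gbp2, Igtp, Irgm2 and Psmb8 were under 1 FPKM in wild type and entered through the knockouts, and without a filter the median was 0.31. Of the 8 genes at least 1 above, 5 lie on chromosomes 8 and 11, and the 18 members outside chromosomes 6, 8 and 11 had a median of 0.38 and 12 members above in both.

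Among the regulators, Stat2 was at 10.3 FPKM in wild type, 10.9 in knockout 1 and 7.22 in knockout 2. Irf1, a transcription factor induced by interferon, was at 15.9 against 37.7 and 54.8 FPKM and lies on chromosome 11. Irf3, which acts upstream of interferon production, was lower, at 9.22 against 2.50 and 4.77. Among the GTPases, which act against intracellular pathogens, Gbp2 on chromosome 3 was at 0.380 against 3.35 and 7.53 FPKM. The chromosome 11 genes Irgm1, Igtp and Irgm2 were at 1.27, 0.777 and 0.394 FPKM in wild type; Irgm1 reached 9.92 and 13.3 in the knockouts, Igtp 4.19 and 5.64, and Irgm2 1.86 and 3.31. All 4 GTPase genes were near or under 1 FPKM in wild type and higher in both knockouts.

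The antigen presentation genes differed among themselves. The immunoproteasome subunit Psmb8 was at 0.242 FPKM in wild type and at 3.53 and 6.70 in the knockouts, and Psmb10 (chromosome 8) at 7.05 against 22.7 and 21.3, while Psmb9 was at 4.26 against 2.31 and 4.72. The peptide loading factor Tapbp was at 10.97 against 18.3 and 29.8 FPKM. H2-K1, an MHC class I heavy chain, was at 21.8 against 51.9 and 37.7, and its light chain B2m was level at 29.4, 29.0 and 27.7 FPKM. Of the interferon-induced membrane proteins, Ifitm3 was at 128 against 293 and 317 FPKM, Ifitm2 at 799, 816 and 860, and Ifitm1 at 848 against 481 and 773. Isg15, Mx1, Ifit1, Ifit2, Ifit3, Irf7, Ifih1, Iigp1 and Nlrc5 had means under 1 FPKM and were not tested.

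**Figure D5:**
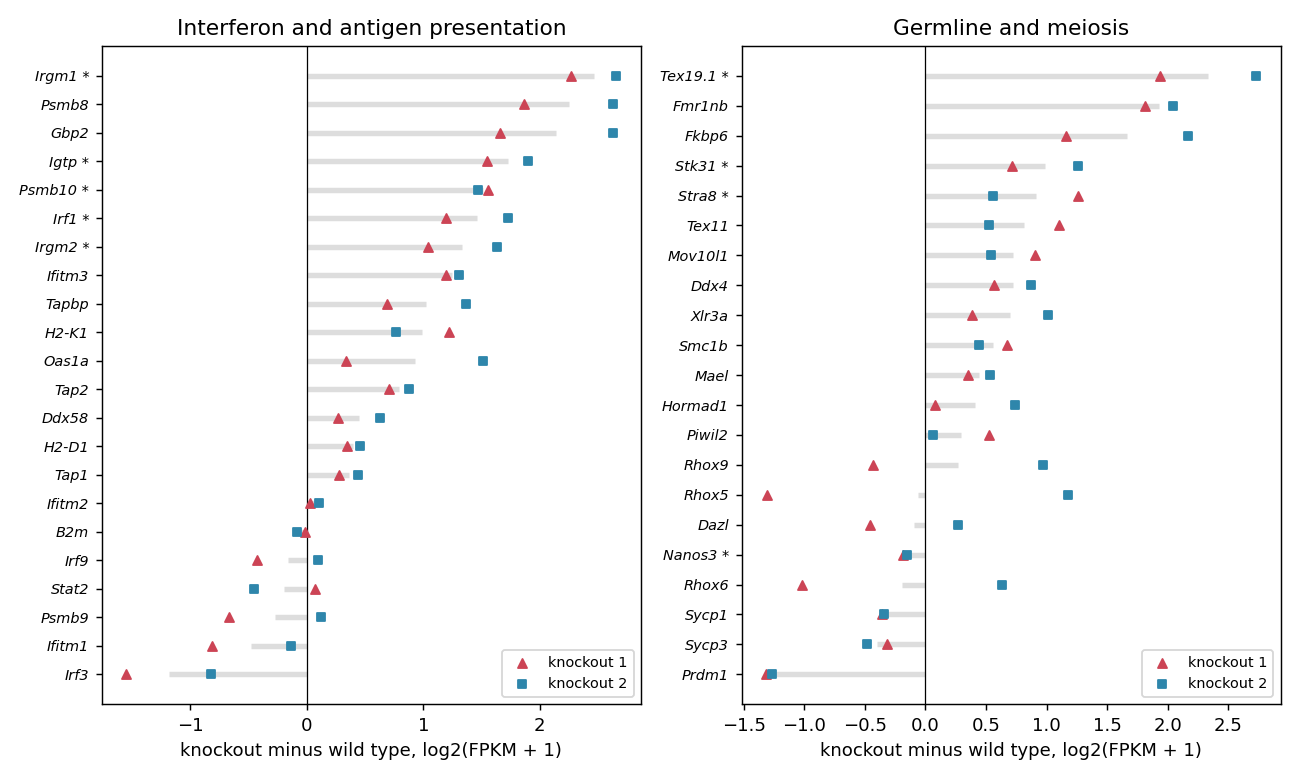
Difference of each knockout library from wild type with LIF for 22 of the 23 tested interferon and antigen presentation genes (left) and the 21 tested germline genes (right), log2(FPKM + 1); triangles are knockout 1, squares knockout 2, bars the mean difference, and an asterisk marks genes on chromosomes 6, 8 or 11. Irgm1, Psmb8 and Gbp2 lead the left panel and Tex19.1, Fmr1nb and Fkbp6 the right, and Irf3 and Prdm1 are the lowest.

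Many genes of germ cells are silenced in other cells by DNA methylation and by repressors that bind the E-box CACGTG. This E-box, which reads the same on both strands, was in 6.02% of all promoters (250 bases before the start), in 10.4% of tested genes and in 8 of the 17 tested germline genes with a promoter in the table. Of the 156 genes at least 1 above, 16 of 120 held it (13.3%), and of the 89 genes below, 5 of 63 (7.94%). These shares were not tested. Of the 3 germline genes at least 1 above, 1 held it, Fkbp6. Among the 8 holders, Sycp1 and Sycp3 were below wild type in both knockouts, and Ddx4, Fkbp6, Hormad1, Mael, Mov10l1 and Stk31 were above. The E-box is in capitals for 3 germline genes that were above wild type in both knockouts and for Sycp3, which was below in both, at chr5:135350125-135350160 (Fkbp6, minus strand), chr6:49395469-49395504 (Stk31), chr13:112652319-112652354 (Ddx4, minus strand) and chr10:88459508-88459543 (Sycp3).
Fkbp6: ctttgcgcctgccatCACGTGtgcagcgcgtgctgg
Stk31: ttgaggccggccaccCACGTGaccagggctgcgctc
Ddx4: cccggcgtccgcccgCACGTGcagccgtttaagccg
Sycp3: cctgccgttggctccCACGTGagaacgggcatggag

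Of 21 tested germline and meiosis genes, 13 were above wild type in both knockouts and 4 below, with a median of 0.44 (0.38 in knockout 1, 0.56 in knockout 2). Fkbp6, Mov10l1 and Xlr3a were under 1 FPKM in wild type and entered through the knockouts. Tex19.1, a germ cell and ESC protein that restrains retrotransposons, was at 24.6 FPKM in wild type, 96.9 in knockout 1 and 169 in knockout 2, on chromosome 11. Fmr1nb, a cancer-testis gene on the X chromosome, was at 10.8 against 40.5 and 47.6 FPKM. Fkbp6, a cochaperone of the piRNA pathway, was at 0.961 against 3.39 and 7.81. These 3 were at least 1 above in both knockouts.

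Other germline genes differed by less or disagreed. Ddx4, the germ cell RNA helicase, was at 5.28 against 8.31 and 10.5 FPKM, and Stra8, which starts meiosis, at 5.47 against 14.5 and 8.54. Sycp3, of the synaptonemal complex, was at 15.9 against 12.5 and 11.1. Dazl, a germ cell RNA-binding protein, was at 2.39 against 1.46 and 3.09, on both sides of wild type. Prdm1, the repressor that specifies primordial germ cells, was below in both, at 13.0 against 4.61 and 4.82 FPKM. The homeobox gene Rhox5 separated the knockouts, at 25.996 FPKM in wild type, 9.91 in knockout 1 and 60.0 in knockout 2, and Rhox6 and Rhox9 had the same order of the 3 libraries.

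Of 18 tested paternally expressed imprinted genes, 13 were above wild type in both knockouts and 2 below, with a median of 0.60. Of the 13 members outside chromosomes 6, 8 and 11, 8 were above and 2 below, and the 5 members on these chromosomes were all above. The members Igf2, Dlk1, Plagl1 and Magel2, were under 1 FPKM in wild type and entered through the knockouts. Mest, Dlk1 and Nnat were at least 1 above in both; Nnat, a small membrane protein, was at 2.39 FPKM in wild type and 10.3 and 18.3 in the knockouts. Igf2, the growth factor, was at 0.760 against 2.22 and 5.55, and Peg10, a retrotransposon-derived gene on chromosome 6, at 52.2 against 70.3 and 98.1. Peg3 was level at 7.36, 6.85 and 8.60 FPKM.

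The 15 tested maternally expressed imprinted genes were mixed, with 5 above, 8 below and a median of -0.12 (0.06 without a filter on low values). Beside Meg3, Rian and Mirg above and Grb10 below, Cdkn1c, an inhibitor of cyclin-dependent kinases, was at 32.0 FPKM in wild type and 11.8 and 18.6 in the knockouts. Phlda2, which limits placental growth, was at 153 against 96.7 and 58.7. H19 was at 3.97 and 7.55 FPKM in wild type and knockout 1 and at 56.1 in knockout 2, so its mean difference rests on knockout 2. Igf2r was level at 14.1, 18.3 and 11.8 FPKM.

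Of 17 tested genes of DNA methylation, 7 were above and 3 below in both knockouts and none was at least 1 away, with a median of -0.02 (0.03 under quantile normalization and 0.01 under median ratio scaling). The de novo methyltransferase genes Dnmt3a and Dnmt3b were above: Dnmt3a was at 17.5 FPKM against 30.2 and 31.1, and Dnmt3b at 117 against 174 and 211. Zfp57, which protects methylation at imprinted regions, was at 120 against 183 and 251. The maintenance genes did not share that direction, with Dnmt1 at 88.1, 89.1 and 69.9 FPKM and Uhrf1 at 131, 109 and 105. Dnmt3l, the cofactor of the de novo enzymes, was at 134 in wild type, 69.6 in knockout 1 and 152 in knockout 2. Tet1 was level at 37.3, 36.9 and 35.6, and Tet2 was at 12.0, 10.3 and 7.72 FPKM.

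The core pluripotency factors stayed high in every library. Pou5f1 was at 1145 FPKM in wild type, 1002 in knockout 1 and 1053 in knockout 2, and Nanog at 230, 189 and 226. Sox2 was at 385 against 310 and 257 FPKM. Of the 6 members tested, 5 were below wild type in both knockouts and none above, with a median of -0.21, and none was at least 1 away. Of these 6, Sall4 alone lay on both sides, at 90.3, 64.9 and 101 FPKM.

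The naive transcription factors were lower on balance. Of 15 tested, 11 were below wild type in both knockouts and 1, Tfe3, was above, with a median of -0.37 (-0.33 and -0.23 in the separate libraries). Tfcp2l1, a target of STAT3, was at 36.0 FPKM against 16.8 and 19.7 (log2 difference -0.94, SE 0.220, limma adjusted p = 0.121). Esrrb was at 193 against 145 and 104, Klf2, on chromosome 8, at 403 against 336 and 267, and Nr5a2 at 20.4 against 13.7 and 14.01. Klf4 lay on both sides of wild type, at 13.2, 11.8 and 15.9 FPKM, and Zfp42 likewise, at 361, 412 and 334. After LIF removal the median of the 15 factors was 0.05, with 4 above and 3 below in both knockouts.

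Markers of the naive state other than these factors did not share a direction, with 7 above and 7 below of 18 tested and a median of 0.13, which was -0.05 in knockout 1 and -0.11 without the members on chromosomes 6, 8 and 11. Dppa5a, an RNA-binding protein and the most abundant of them, was at 6460.5 FPKM in wild type and 4062 and 4115 in the knockouts, and Tcl1 was the furthest below. Dppa3, which encodes the oocyte and naive ESC factor Stella, was at 24.95 against 50.5 and 70.9 FPKM, on chromosome 6. Crxos, a homeobox gene, was at 1.54 against 4.53 and 5.75, and Tex19.1 belongs here too. Thus the markers that were higher in both knockouts include genes also known from germ cells, and those that were lower include the most abundant marker of the list.

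Of 19 tested genes of the LIF receptor and STAT3 pathway, 13 were below wild type in both knockouts and 5 above, with a median of -0.36 (-0.18 in knockout 1, -0.24 in knockout 2). At the receptor, Lifr was at 8.45 FPKM against 7.35 and 5.46, and its partner Il6st was level at 24.7, 24.8 and 23.7. Stat3, on chromosome 11, was at 8.53 against 12.9 and 12.5, above by 0.54 and 0.50, close to that chromosome's medians. Among known targets, the kinase genes Pim1 and Pim3 were lower in both knockouts: Pim1 was at 117 against 63.1 and 56.2 FPKM, and Pim3 at 120 against 64.4 and 65.0 (log2 differences -0.96 and -0.88, limma adjusted p = 0.127 and 0.104). The feedback inhibitor Socs2 was at 41.9 against 30.3 and 30.8, and Socs3, on chromosome 11, at 3.59 against 5.88 and 4.67. Among the genes above wild type in this list, Stat3, Stat5b and Socs3 lie on chromosome 11.

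Formative and primed epiblast genes were above wild type more often than below, 14 against 3 of 21 tested, with a median of 0.43 (0.32 in knockout 1 and 0.74 in knockout 2). Wnt8a and Cdh2, both among the 14, were under 1 FPKM in wild type and entered through the knockouts. Pim2, a kinase gene on the X chromosome, was at 38.8 FPKM in wild type, 113 in knockout 1 and 238 in knockout 2, and Wnt8a was at 0.732 against 2.67 and 6.49. Fgf5 was at 1.64 against 2.29 and 5.58 FPKM, and Pou3f1 at 15.5 against 23.2 and 62.1, so that for both the larger part came from knockout 2. Otx2 was at 40.5 against 49.7 and 52.0 FPKM. Fgf15 went the other way, at 14.7 against 3.78 and 6.59. After LIF removal the median of these 21 genes was -0.35, with 6 above and 9 below in both knockouts. These values come from 3 other libraries; whether the knockouts of both media share clones is not stated.

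Most genes of later lineages were low. Of 21 primitive streak, mesoderm and endoderm genes, 6 reached a mean of 1 FPKM, and of these Eomes was at 5.12, 5.28 and 3.86 FPKM in the 3 libraries. Of 9 tested neural genes 4 were above and 1, Pax6, was below in both knockouts; Nes was at 1.57 against 3.41 and 4.42 and Tubb3 at 81.3, 84.5 and 75.9. Of 9 tested trophoblast genes 5 were above and 2 below, with a median of 0.66; Krt7, one of the 5, was at 0.463 FPKM in wild type and entered through the knockouts, and without a filter the median was 0.51. Esx1, an X-linked homeobox gene of the placenta, was at 1.60 against 11.9 and 7.36 FPKM, and Krt8, a keratin, at 8.06 against 14.9 and 25.8, while the regulator Tfap2c was below, at 33.4 against 16.9 and 21.05. The defining trophoblast factors Cdx2, Elf5, Hand1 and Gata3 did not reach a mean of 1 FPKM. The 2-cell gene Zscan4c was at 1.36, 0.246 and 1.502 FPKM.

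In Wnt signalling, 8 genes were above and 7 below of 21 tested, with a median of 0.00. Axin2, a feedback target of the pathway on chromosome 11, was at 3.23 FPKM in wild type, 10.3 in knockout 1 and 9.54 in knockout 2. Lef1, a nuclear effector, was at 7.18 against 13.6 and 18.2, and Ctnnb1, which encodes beta-catenin, was level at 317, 324 and 312. Sfrp1, described above, was the member furthest below, and Tcf7l1 lay on both sides of wild type at 35.7, 28.3 and 40.8 FPKM.

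In FGF and ERK signalling, 10 genes were above and 15 below of 29 tested, with a median of -0.10. Fgfr1, the receptor, was at 38.9 FPKM against 21.9 and 20.5, and Dusp4, a phosphatase of ERK, at 28.02 against 13.9 and 12.3. Both genes lie on chromosome 8, where the median difference was 0.07 in knockout 1 and -0.36 in knockout 2. The immediate early gene Egr1 was above, at 10.8 against 32.5 and 20.5, while the feedback genes Dusp6 (25.4, 18.7 and 23.3) and Spry4 (21.6, 17.4 and 17.0) were below. Of 31 tested Nodal and BMP genes, 11 were above and 16 below, with a median of -0.17. Id3, a BMP target, was at 18.4 against 37.6 and 67.2 FPKM and Id1 at 66.6 against 92.8 and 98.0. The other Id genes went the other way, with Id2 at 35.8 against 26.9 and 31.5 and Id4 at 1.77 against 0.779 and 0.944. The ligand gene Bmp4 was at 8.63 against 6.62 and 4.51 and the Nodal antagonist gene Lefty1 at 265 against 147 and 199.

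Nearly all respiratory chain subunits encoded in the nucleus were slightly lower. Of 33 tested, 30 were below wild type in both knockouts and 2, Ndufa9 and Ndufv1, above, with a median of -0.27 (-0.20 in knockout 1 and -0.29 in knockout 2), and none was at least 1 away. Cox6c, of cytochrome c oxidase, was at 374 FPKM against 213 and 195 (log2 difference -0.87, limma adjusted p = 0.100). Ndufa1, of complex I, was at 81.6 against 35.6 and 45.8, and Cox5a at 553 against 366 and 358. For the ATP synthase subunit Atp5b the values were 1494.7, 1370 and 1205. These transcripts are short, with a median annotated length of 1166 bases, and short transcripts as a class were lower. Set against genes in the same range of length, 28 of the 33 were below the median of their range, by 0.19 at the median. Under quantile normalization the median of the list was -0.16.

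Glycolysis and hypoxia genes had no shared direction, with 10 above and 11 below of 28 tested. The lactate carrier gene Slc16a3, on chromosome 11, was above, at 71.0 FPKM against 163 and 156. Of the glucose carrier genes, Slc2a1 was above, at 174 against 319 and 296, while Slc2a3 lay on both sides of wild type, at 372, 392 and 316. Ndrg1, a hypoxia-responsive gene, was at 3.79 against 19.7 and 12.0. The enzyme genes Pkm (2117, 2014 and 1967 FPKM) and Ldha (1196.5, 1245 and 1154) were nearly level, and Ldhb, the other lactate dehydrogenase subunit, was at 561 against 328 and 272. Of 23 cholesterol synthesis genes 8 were above and 5 below, and none was at least 1 away in both knockouts.

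Stress and cell cycle genes showed few large differences. Of 23 p53 target genes tested 7 were above and 7 below: Cdkn1a was at 38.5, 42.4 and 40.3 FPKM, Mdm2 at 73.6, 61.2 and 78.1, and the apoptosis gene Bbc3 at 54.1 against 34.3 and 24.5. Of 22 ATF4 and unfolded protein genes 9 were above and 8 below, with Atf4 at 384, 371 and 356 FPKM. Of 35 cell cycle genes 9 were above and 21 below, with a median of -0.16. Pttg1 was the only one of these 35 at least 1 away in both knockouts. The inhibitor gene Cdkn1b was at 29.8 against 15.6 and 12.6 FPKM, and Mki67 at 36.1, 36.0 and 29.9.

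Among other RNA-processing genes, no listed member was at least 1 away in both knockouts, though several differed by less. None of 31 tested SR protein and splicing regulator genes was at least 1 away in both knockouts, with 8 above, 16 below and a median of -0.12. Srsf1 was at 148, 147 and 168 FPKM and Rbfox2 at 25.8, 27.9 and 27.9, while Qk, an RNA-binding splicing regulator, was at 58.4 against 38.2 and 41.8. Of 21 cleavage and polyadenylation genes 5 were above and 12 below, and again none was at least 1 away. Nudt21, which encodes a subunit of cleavage factor I and lies on chromosome 8, was at 11.5 and 11.4 FPKM in wild type and knockout 1 and at 5.08 in knockout 2. Of 12 Lin28 and oncofetal RNA-binding genes 6 were above and 5 below: Igf2bp2 was at 52.95 against 32.6 and 28.2 FPKM and Msi1 at 14.3 against 8.76 and 5.23, while Igf2bp1, on chromosome 11, was at 63.3 against 93.3 and 110.

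Polycomb and junction genes were divided as well. Of 17 tested polycomb genes 8 were above and 7 below, and 7 of the 17 lie on chromosomes 6, 8 or 11. Suz12, on chromosome 11, was at 106 FPKM against 175 and 175, and Ezh2, on chromosome 6, at 65.5 against 52.5 and 42.5; both encode subunits of the H3K27 methyltransferase complex PRC2. Of 20 epithelial junction genes 7 were above and 8 below: Cldn4 was at 138 against 66.2 and 56.4 FPKM, and Epcam was level at 117, 103 and 108. Of 19 mesenchymal and matrix genes 7 were above and 6 below, and the list's median was -0.18 in knockout 1 and 0.60 in knockout 2. Vim was at 24.4, 27.4 and 45.6 FPKM, highest in knockout 2, and Fn1 at 221, 202 and 152.

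The 2 knockout libraries were not alike for every gene. Snora81, a small nucleolar RNA, was listed at 0 in wild type and knockout 1 and at 851 FPKM in knockout 2. Amd1, an enzyme of polyamine synthesis, was at 8.79 FPKM in wild type, 0.0273 in knockout 1 and 23.5 in knockout 2, and Lars2, the mitochondrial leucyl-tRNA synthetase, at 143, 28.4 and 160. H19 and Rhox5, given above, complete the 5 genes with at least 20 FPKM in a library in which the knockouts differed most. Knockout 1 was below wild type by more than 1 for Amd1, Lars2 and Rhox5, while knockout 2 was above it for all 5 genes.

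The libraries made after 4 days without LIF allow the same genes to be read in other libraries, which may not be independent of those with LIF. Whether a knockout number marks the same cells in both media is not stated. The difference between knockouts 1 and 2 correlated between the media with r = 0.354. Of the 156 genes, 84 lie outside chromosomes 6, 8 and 11, and the counts below were not split by chromosome. Of the 156 genes at least 1 above with LIF, 42 (26.9%) were at least 1 above in both knockouts after removal as well, which is 35.3% of the 119 genes (1.02% of those tested) that were so there. In all, 139 of the 156 had both knockouts above wild type after removal and 8 had both below, where 35.4% of all tested genes had both above and 39.1% both below. Of the 89 genes below, 12 (13.5%) were at least 1 below after removal, 21.4% of the 56 genes (0.481%) that were so there, and 79 had both knockouts below wild type. Serpina3m was at 0.108 FPKM in wild type and 27.5 and 45.8 in the knockouts, and Mest at 15.2 against 235 and 241. Rian was at 13.4 against 180 and 175 FPKM, Meg3 at 8.92 against 116 and 124, and Hnrnpf at 335 against 95.2 and 27.8. The difference between the effects in the 2 media passed the test for no gene (limma interaction, smallest adjusted p = 1, 338 genes at an unadjusted p under 0.05).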

How the data were processed

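Total RNA was sequenced as 150 bp paired-end reads, per the labels' protocols. The authors deposited 1 table of FPKM per gene symbol and library; STAR, Cufflinks and the build mm10 are named in the submitters' processing notes. For versions, annotation and strand handling, nothing is given in the sources used here, so values of paralogs and of overlapping or antisense genes are uncertain. Gene lists and members were chosen with earlier results of these data known.

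Values were analysed as log2(FPKM + 1), which understates changes of low genes, without rescaling. limma 3.58.1 (R 4.3.3; empirical Bayes with intensity trend, two-sided, Benjamini-Hochberg over 11641 genes, threshold 0.05) was fitted to 4 groups over 6 libraries, with 2 residual and 4.59 prior degrees of freedom. The single wild type library is assumed to vary like the knockouts. The test was checked on simulated data with independent noise, equal spread in wild type and knockouts, and no chromosome-wide shift. That check does not cover departures from these settings in the real libraries.

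Genes named are Hnrnpf, all that passed, the 15 furthest above and below in both knockouts (higher group mean of at least 5 FPKM), up to 4 members per list with the largest agreeing differences, defining members, and the 5 in which the knockouts differ most; other list members named were chosen after their values were seen, and some genes these rules name are not reported here. Of 756 list entries, 752 were found. Positions and lengths are from GENCODE M21 (GRCm38), promoters from RefSeq. Alternatives covered pseudocount, filter, scaling, chromosomes, trend, block and left-out libraries.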

Additional observations from a re-analysis of the deposited data

Results flagged for a closer look

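For 19 of the 228 named genes both knockout libraries lay on one side of wild type with LIF and on the other side after LIF removal. None of these differences between media passed the limma interaction test. The values below are the knockout effect after removal minus that with LIF, log2(FPKM + 1). Ndufb4 had 3.57, Lsm7 2.95 and Fsbp 2.08, each with a wild type level after removal below that with LIF. After removal, Ndufb4 was at 0.466 FPKM in wild type against 1.56 and 2.23 in the knockouts, and Lsm7 at 2.14 against 3.81 and 6.16. Among pluripotency genes, Tbx3 had 1.61, Prdm14 0.68 and Nanog 0.54. Lefty1 had 1.15, Lefty2 0.59, Bmp4 0.79 and Id1 -0.99. The formative genes Otx2 and Dnmt3b had -0.76 and -1.28, Dnmt3a had -0.91 and Tet1 0.48. Nes had -1.34, Hmga2 -1.24, Hnrnph2 -0.28, Rnf2 0.36 and B2m 0.41.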

How the results depend on the processing

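The 4 calls became 7 with a mean of at least 5 FPKM, 8 (5 higher, 3 lower) without chromosomes 6, 8 and 11, and 0 with no filter or no intensity trend. Leaving out 1 library gave 0 calls (without knockout 2 with LIF) to 6 (without knockout 1 with LIF). The wild type library with LIF cannot be left out. Genes at least 1 above in both (156) became 342 with a pseudocount of 0.1, 76 with a mean of at least 5 FPKM and 84 without the 3 chromosomes, and 232 to 396 with a single knockout library; genes below (89) became 154, 54 and, with a single library, 184 to 291. The interferon median became 0.45 with a mean of at least 5 FPKM, 0.31 with no filter and 0.38 without the 3 chromosomes, the germline median 0.58 with a mean of at least 5 FPKM, and the respiratory chain median -0.16 under quantile normalization and -0.21 centred within length ranges, an alternative chosen after seeing the data. With a single knockout library the medians ranged from 0.35 to 0.76 (interferon), 0.32 to 0.74 (formative), -0.33 to -0.23 (naive factors), -0.24 to -0.18 (LIF and STAT3) and -0.29 to -0.20 (respiratory chain). None of the 4 genes that passed changed direction in these settings. Of the 228 named genes, 18 changed sign without knockout 1, 12 without knockout 2, 7 under quantile normalization, 5 centred within length ranges and 3 under median ratio scaling; 12 of 30 list medians changed sign under at least 1 alternative, none of them a median listed here. The cause was not tested. With the knockout number as a replicate block the calls were 925 (490 higher, 435 lower), among them all 4. Wild type has no number, only 2 pairs exist, and same-numbered libraries deviated together with r = 0.354, so the pairing is not established.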
